A study of Danio rerio with 14 samples.

Results

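The strong compact H2A.Z peaks of control zebrafish embryos are the narrow regions with the most H2A.Z signal in embryos that received solvent alone. They were selected on the measured DMSO level: a consensus peak entered where the authors' DMSO level was at least 5.5 on the log2 scale (45.3 normalised reads per peak) and the peak was narrower than 2000 bp. Peaks had to lie on the assembled chromosomes 1 to 25, and the part of chromosome 4 from 25 Mb onwards, a repeat-rich arm, was left out. The rule found 1313 of 29854 peaks in the table that compares 5-AzaC with DMSO and 1297 of 28988 peaks in the table that compares TDCIPP with DMSO. Peaks of this level and width that the rule leaves out numbered 19 on the chromosome 4 arm in each table and 142 and 151 on alternate or unplaced sequences. Because the DMSO level chose the peaks, and each log2 change subtracts that level, the selection favours falls after treatment. The changes below are therefore a description, with no test of the group of peaks.

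H2A.Z is a variant of histone H2A that chromatin remodellers of the SRCAP and p400 type place into nucleosomes. In many animals it sits beside the start sites of active genes and at enhancers, and in vertebrates it is largely kept apart from methylated DNA. In early zebrafish embryos, nucleosomes that carry H2A.Z are known to mark unmethylated DNA before the zygotic genome becomes active.

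The assay was CUT&Tag for H2A.Z, in which an antibody tethers a transposase that cuts and tags nearby DNA, in wild-type AB/Tuebingen embryos at 6 hours after fertilization, when gastrulation has begun. The control embryos received 0.1% DMSO (3 samples). The treated embryos received 5-AzaC (5-azacytidine), a nucleoside analogue that lowers DNA methylation, at 100 µM from the 1-cell stage (3 samples), or TDCIPP, an organophosphate flame retardant, at 3.12 µM from 0.75 hours (2 samples). Embryos were kept in wells of around 50, and each library came from around 10000 cells of whole embryos, so all cell types are pooled and fewer cells with H2A.Z at a region cannot be told apart from less H2A.Z per cell. The other 6 of 14 samples of the series, from embryos that overexpress H2A.Z, were not analysed here. The tables give 1 level per group and no value per sample, so the spread between replicates is seen only through the p-value and FDR that the authors deposited. Coordinates are those of the tables, on GRCz11 per the submitters' processing notes. Gene annotation and sequence of that build were not used here, so the peaks are named by position.

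In DMSO embryos most strong compact peaks lay close to the threshold, and a small tail lay far above it. In the 5-AzaC table the authors' DMSO levels ran from 5.5 to 9.34, with a median of 5.82 and quartiles of 5.63 and 6.11. Only 43 of the 1313 peaks reached a level of 7. The peaks were 304 to 1999 bp wide, with a median of 1316 bp, against 782 bp over all peaks of that table. They made up 5.45% of the peaks on the chromosomes considered and 8.11% of the length of those peaks (1.74 of 21.4 Mb), and they held 19.5% of the DMSO signal, with a mean linear level of 67.2 against 18.8. The TDCIPP table gave a like picture, with 5.56% of peaks, 8.35% of their length and 19.6% of the DMSO signal.

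Both tables describe nearly the same set. Matched one to one by overlap, 1229 peaks were strong and compact in both, of which 260 had identical coordinates. A further 80 peaks of the 5-AzaC set and 65 of the TDCIPP set had a partner outside the rule, because the partner was under the level (48 and 28 peaks) or 2000 bp or wider (32 and 37 peaks). Only 4 and 3 peaks had no partner. The DMSO libraries are the same in both tables: their level was equal to within 0.005 in 5294 of the 5295 peaks with identical coordinates. The 2 comparisons therefore share their controls.

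The 5 strongest peaks of the 5-AzaC table had DMSO levels of 8.57 to 9.34. The strongest, on chromosome 17 from 53383511 to 53384903, had levels of 9.34 in DMSO and 9.42 after 5-AzaC, and its partner had 9.42 after TDCIPP. Neither treated level differed from DMSO by more than 0.08. A 1980 bp peak on chromosome 7 from 53018471 to 53020451 had levels of 9.30 in DMSO and 10.04 after 5-AzaC, and the authors' deposited table gave an FDR of 0.0152. The peak on chromosome 24 from 12368724 to 12369954 had 9.14 in DMSO, 9.5 after 5-AzaC and, at its partner, 9.34 after TDCIPP. On chromosome 10, 2 strong peaks about 20 kb apart, from 16800447 to 16802022 and from 16820747 to 16822182, had DMSO levels of 8.84 and 8.57. After 5-AzaC they stood at 9.42 and 9.02, and after TDCIPP their partners stood at 8.77 and 8.41. In all 5 peaks the 5-AzaC level was above the DMSO level, and the TDCIPP levels lay on either side of it. In the order given, the authors' deposited FDRs after 5-AzaC were 0.707, 0.0152, 0.173, 0.0252 and 0.0642. At the partners after TDCIPP they were 0.565 to 0.863, so none was called there.

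**Figure D1:**
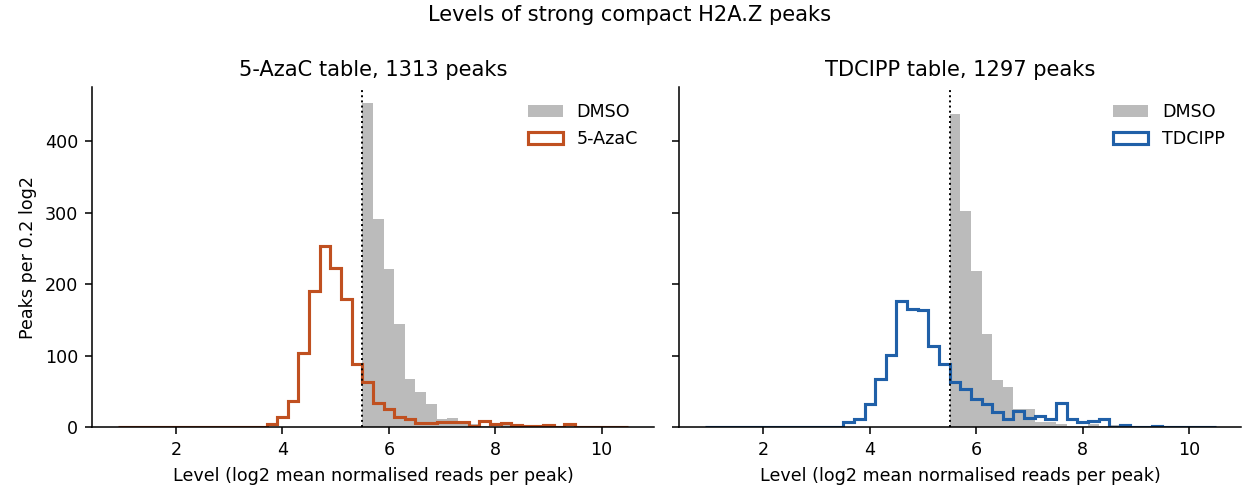
Histograms of the authors' group levels (x axis, log2 of mean normalised reads per peak; y axis, peaks per 0.2 log2) for the strong compact peaks of each table, in DMSO (filled) and after treatment (line); the dotted line is the threshold of 5.5. The DMSO levels start at the threshold by the rule, the bulk of the treated levels lies below it with medians of 4.94 and 4.98, and TDCIPP has a second group of peaks at levels of about 7 to 8.

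After 5-AzaC the median level of the strong compact peaks was 4.94 (quartiles 4.67 and 5.26), against 5.82 in DMSO. The median deposited log2 change was -0.92, with quartiles of -1.11 and -0.71, and the change was below 0 in 94.0% of the peaks. Levels were lower over the whole table, where the median change was -0.70, so relative to all peaks the strong compact peaks lay at -0.22. With calls taken as FDRs under 0.05, the authors' deposited table called 800 of the 1313 peaks (60.9%) lower and 23 (1.75%) higher. Among all 20013 peaks of that table with an FDR under 1, the called shares were 18.7% lower and 0.45% higher. The remaining 490 peaks were not called. The rule used the DMSO level of this contrast, so the larger share of lower calls is not read as a property of these peaks.

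After TDCIPP the median level was 4.98 (quartiles 4.61 and 5.61), and the spread was wider, from 1.33 to 9.42. The median deposited log2 change was -0.93, with quartiles of -1.21 and -0.39, which is -0.40 once the shift of all peaks (-0.53) is taken off. The authors' deposited table called 452 of the 1297 peaks (34.9%) lower and 69 (5.32%) higher, where the called shares of all 17181 peaks with an FDR under 1 were 9.81% and 2.05%. The median change thus nearly equalled that after 5-AzaC, while fewer peaks were called. Among peaks with a change between -1 and -0.9, 187 of 207 were called for 5-AzaC (3 samples) and 4 of 127 for TDCIPP (2 samples). The cause of this difference was not tested.

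For TDCIPP the sign of the median depended on which group's level selected the peaks. When compact peaks were selected on a treated level of at least 5.5 in place of the DMSO level, 244 peaks qualified for 5-AzaC and 564 for TDCIPP. Of these, 218 and 363 were also strong in DMSO, which is 16.6% and 28.0% of the strong compact peaks. The median deposited log2 change of the peaks selected on the treated level was -0.48 for 5-AzaC and 0.49 for TDCIPP. With the treated threshold lowered by the median change of all peaks, to 4.80 and 4.97, 1004 and 1258 compact peaks qualified. These included 837 (63.7%) of the strong compact peaks for 5-AzaC and 659 (50.8%) for TDCIPP, and the medians of the peaks so selected were -0.72 and 0.15. The order of the treatments by this overlap was thus the reverse of that at the unmoved threshold. At the edge of the rule, the 20 peaks of the 5-AzaC table at a DMSO level of 5.5 had a median change of -0.89, and the 16 just outside, at 5.49, had -0.84. For TDCIPP the 17 peaks inside had -1.0 and the 24 outside -0.80. Peaks up to 50 bp under the width limit had medians of -1.04 (26 peaks) and -0.95 (23 peaks), and peaks up to 50 bp over it had -1.0 (22 peaks) and -1.10 (34 peaks).

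**Figure D2:**
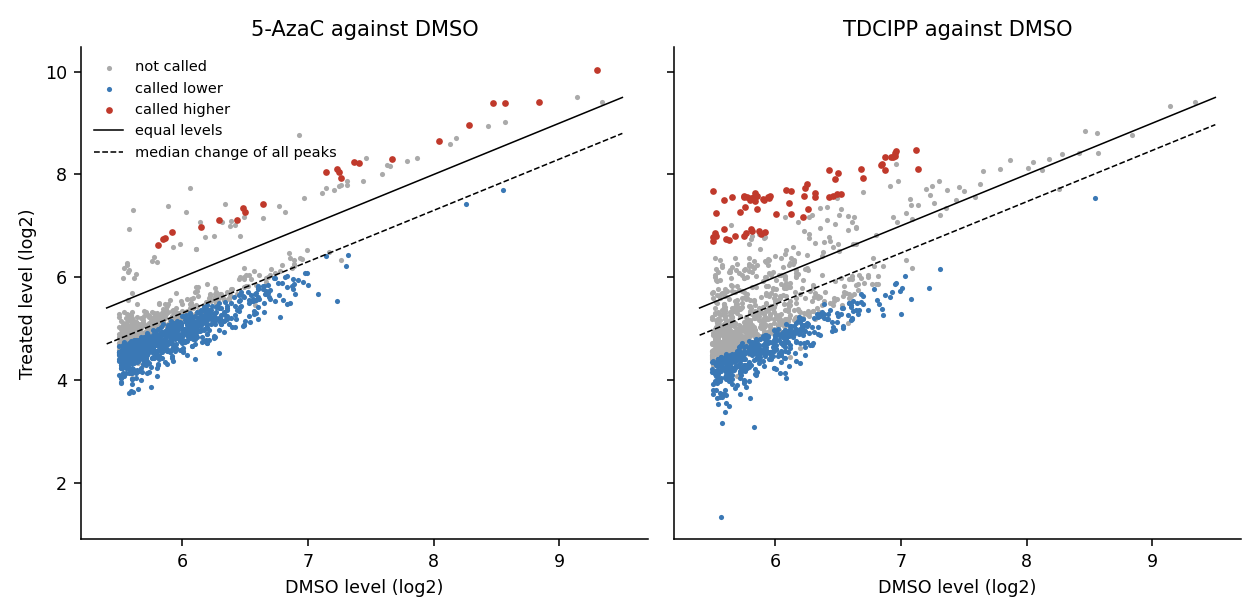
Treated level (y axis, log2) against DMSO level (x axis, log2) for each strong compact peak, coloured by the call at a deposited FDR under 0.05; the solid line marks equal levels and the dashed line the median change of all peaks of the table. After 5-AzaC 75.3% of the peaks lie below the dashed line, with 23 higher calls spread along the level axis. After TDCIPP the 69 higher calls lie at treated levels around 7 to 8. Uncalled peaks lie there too, as on chromosome 18 at 7.65.

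The medians were of similar size over much of the DMSO range. After 5-AzaC the median deposited change was -0.93 for DMSO levels of 5.5 to 6 (866 peaks), -0.95 for 6 to 6.5 (312 peaks) and -0.90 for 6.5 to 7 (92 peaks). Compact peaks just below the rule, at levels of 5 to 5.5, had -0.90 (1765 peaks), and those at 3 to 4 had -0.69. Broad peaks of 2000 bp or more with the same DMSO level had -0.93 over 325 peaks, with 64.6% called lower and 5.85% higher in the authors' deposited table. For TDCIPP the medians in the same 3 level bins were -0.93 (858 peaks), -0.96 (297 peaks) and -0.84 (97 peaks), and the 316 broad peaks had -0.91, with 33.5% called lower and 0.949% higher. Bin by bin the compact and broad medians were not always this close: for TDCIPP at levels of 6.5 to 7 the 45 broad peaks had -0.99, against -0.84 for the compact ones. The share of compact peaks called lower after 5-AzaC was 25.5% at 4.5 to 5, 42.3% at 5 to 5.5 and 59.5% at 5.5 to 6. Their medians were -0.86, -0.90 and -0.93. For TDCIPP the shares in these bins were 12.2%, 20.7% and 32.8%. Called shares over all peaks, most of them weaker, are thus not shares at a like level.

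Above a DMSO level of 7, a threshold chosen after its values were seen, the median changes lay above 0. After 5-AzaC these 43 peaks had a median level of 8.05 against 7.44 in DMSO and a median change of 0.52. The authors' deposited table called 13 (30.2%) higher and 8 (18.6%) lower. Over all peaks with an FDR under 1 the called shares were 0.45% higher and 18.7% lower. After TDCIPP the 45 peaks above this level had a median level of 7.71 against 7.37 in DMSO and a median change of 0.12. Of these, 2 (4.44%) were called higher and 7 (15.6%) lower, against 2.05% and 9.81% of all peaks with an FDR under 1. The 43 peaks held 11.7% of the DMSO signal of the strong compact peaks and 23.2% of their 5-AzaC signal. For TDCIPP the shares were 11.6% and 15.6%. Some of these peaks, 16 for 5-AzaC and 14 for TDCIPP, lay in runs of neighbours, described below. Outside runs the median change was 0.51 over 27 peaks for 5-AzaC, with quartiles of -0.70 and 0.655. For TDCIPP it was 0.19 over 31 peaks, with quartiles of -0.36 and 0.375. Broad peaks of at least this level also had medians above 0, at 0.42 for 5-AzaC (53 peaks) and 0.09 for TDCIPP (48 peaks), though those between 7 and 8 had -0.85 (33 peaks) and -0.90 (28 peaks). Of the 8 compact peaks at this level called lower after 5-AzaC, the peak on chromosome 18 from 21950731 to 21952232 had levels of 7.23 in DMSO and 5.53 after 5-AzaC, for which the authors' deposited table gave 0.000619 as the FDR. Peaks of equal strength in DMSO thus lay on both sides of 0.

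**Figure D3:**
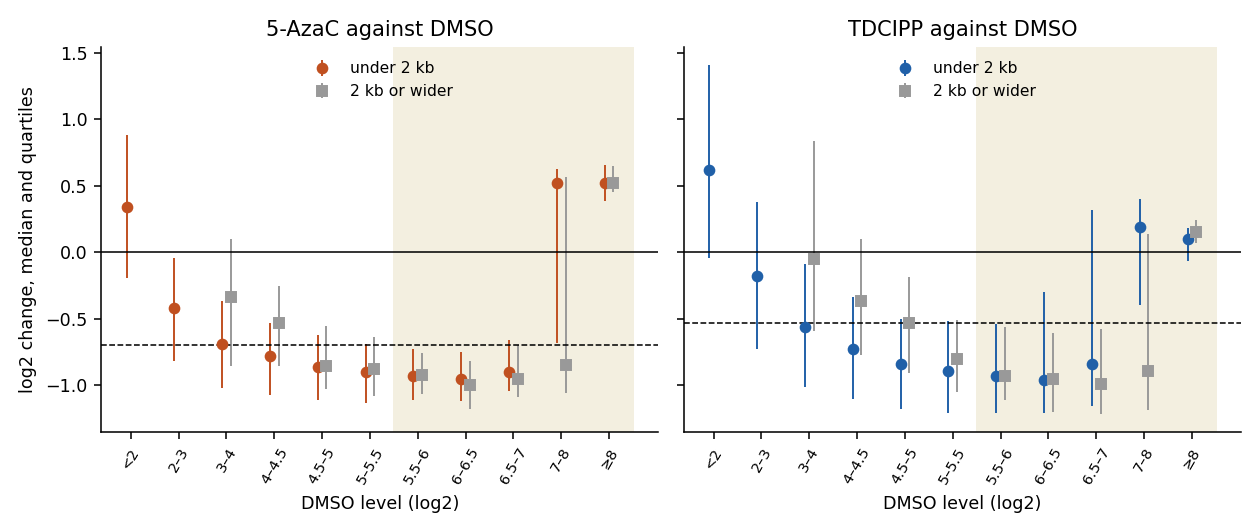
Median deposited log2 change with quartiles (y axis) by DMSO level (x axis, bins on the log2 scale) for peaks under 2 kb (circles) and 2 kb or wider (squares), with the bins of the strong peaks shaded, a solid line at 0 and a dashed line at the median change of all peaks. From levels of 5.5 to 7 the medians of compact peaks lie between -0.96 and -0.84 in both tables, and at 8 and above they lie at 0.52 after 5-AzaC and 0.10 after TDCIPP.

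Width made a difference mainly at the narrow end. After 5-AzaC the 89 peaks under 800 bp had a median change of -0.66 and 25 of them were above 0, against -1.02 for the 159 peaks of 1750 bp or more, of which 7 were above 0. After TDCIPP the 91 narrowest peaks had a median change of 0.13, with 53 above 0, and the 160 widest had -0.99, with 16 above 0. The narrow peaks were also more often in runs of neighbours, described below. Outside such runs, the medians under 800 bp were -0.76 (59 peaks) and -0.18 (61 peaks). The narrowest peak, on chromosome 17 from 39905516 to 39905820, was 304 bp wide, with levels of 5.57 in DMSO and 6.10 after 5-AzaC. A 324 bp peak on chromosome 5 from 58646809 to 58647133 had levels of 5.92 and 6.88 and the largest change of the 5-AzaC higher calls in the authors' deposited table, 0.96 (FDR 0.0335).

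After 5-AzaC the 5 largest called falls ran from -1.87 to -1.80 in the authors' deposited table. The first, on chromosome 16 from 32232691 to 32233748, had levels of 5.75 in DMSO and 3.87 after 5-AzaC (FDR 0.00116 in the authors' deposited table). Its partner had 4.09 after TDCIPP. A peak of chromosome 3 (6959064 to 6960597) had 3.76 after 5-AzaC and 4.71 after TDCIPP, and one of chromosome 23 (21977364 to 21979124) had 3.78 and, at its partner, 4.09. A peak with identical coordinates in both tables, on chromosome 14 from 28432170 to 28433340, had levels of 5.58 in DMSO, 3.75 after 5-AzaC and 3.16 after TDCIPP, with FDRs of 0.00216 and 0.000546 in the authors' deposited tables.

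After TDCIPP the 5 largest called falls ran from -4.25 to -2.15 in the authors' deposited table. The largest, of chromosome 23 (5604584 to 5605430), had levels of 5.57 in DMSO and 1.33 after TDCIPP. That TDCIPP level lay below the lower quartile over all peaks, 2.46, so the size of this change rests on few normalised reads in 2 samples. In the 5-AzaC table the same peak reached further, to 5605804, and had levels of 5.65 in DMSO and 3.83 after 5-AzaC. The second, on chromosome 19 from 3857879 to 3858960, had levels of 5.83 in DMSO and 3.08 after TDCIPP (FDR 1.15e-05 in the authors' deposited table), and its partner had 4.54 after 5-AzaC. On chromosome 6 from 11829811 to 11831082 the levels were 5.60 in DMSO and 3.38 after TDCIPP, and the partner had 4.42 after 5-AzaC. In these 3 peaks both treated levels lay below the DMSO level, and the TDCIPP level was the lower one. The peaks were chosen for their falls after TDCIPP, which favours this order. The shared DMSO libraries and the selection on their level favour falls in both comparisons, here and among the other called falls.

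The smallest FDR of any strong compact peak after 5-AzaC was 0.00031 in the authors' deposited table. It belonged to a peak on chromosome 23 from 18980785 to 18982501, with levels of 6.78 in DMSO and 5.22 after 5-AzaC. The partner had 5.38 after TDCIPP. The next, on chromosome 7 from 38577144 to 38578140, had 6.29 in DMSO, 4.53 after 5-AzaC and, with identical coordinates, 4.68 after TDCIPP. On chromosome 19 from 27448189 to 27449275 the levels were 6.20 in DMSO and 4.71 after 5-AzaC, and 4.32 at the partner after TDCIPP. On chromosome 13 from 25548501 to 25549991 they were 6.26, 4.83 and, at the partner, 4.73. The peak on chromosome 18 from 21950731 to 21952232, given above, also had 1 of the 5 smallest FDRs. Its levels were 7.23 in DMSO, 5.53 after 5-AzaC and, at the partner, 5.78 after TDCIPP. All 5 peaks had DMSO levels above the median of the set. The treated levels lay below the treated medians on chromosomes 7, 19 and 13 and above them on chromosomes 23 and 18.

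Large positive changes did not always carry a small FDR. After 5-AzaC 7 strong compact peaks had a change above 1, and 0 of them were called, with FDRs of 0.0615 to 0.186 in the authors' deposited table, while the 23 called rises were 0.57 to 0.96. The largest of the 7, at 14675664 to 14676386 of chromosome 2, had levels of 6.93 in DMSO and 8.76 after 5-AzaC, which is a change of 1.83 (FDR 0.157) in the authors' deposited table. Its partner had 8.20 after TDCIPP (FDR 0.504 in the authors' deposited table). A second peak on the same chromosome about 15 kb away, from 14660285 to 14661239, had 6.06 in DMSO, 7.74 after 5-AzaC and 7.18 at its partner after TDCIPP. The peak on chromosome 5 from 826287 to 827600 had 5.61 in DMSO, 7.31 after 5-AzaC and 7.01 at its partner after TDCIPP. For TDCIPP 65 of the 69 changes above 1 were called. In the 5-AzaC set the peaks with the largest positive changes were thus not the ones called, and how single libraries differed at these peaks was not analysed here.

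Strong compact peaks were more frequent among the peaks of some chromosomes than of others. In the 5-AzaC table they made up 8.48% of the peaks on chromosome 8 (95 of 1120) and 8.39% on chromosome 15 (80 of 953), against 3.24% on chromosome 22 (28 of 863) and 3.47% on chromosome 9 (32 of 921). The TDCIPP table gave 9.05%, 8.69%, 3.36% and 3.65% for the same chromosomes. After 5-AzaC the median change per chromosome ranged from -1.01 on chromosome 1 to -0.80 on chromosome 8. After TDCIPP it was 0.03 on chromosome 15 and -0.67 on chromosome 8, and between -1.10 and -0.73 on the other chromosomes.

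**Figure D4:**
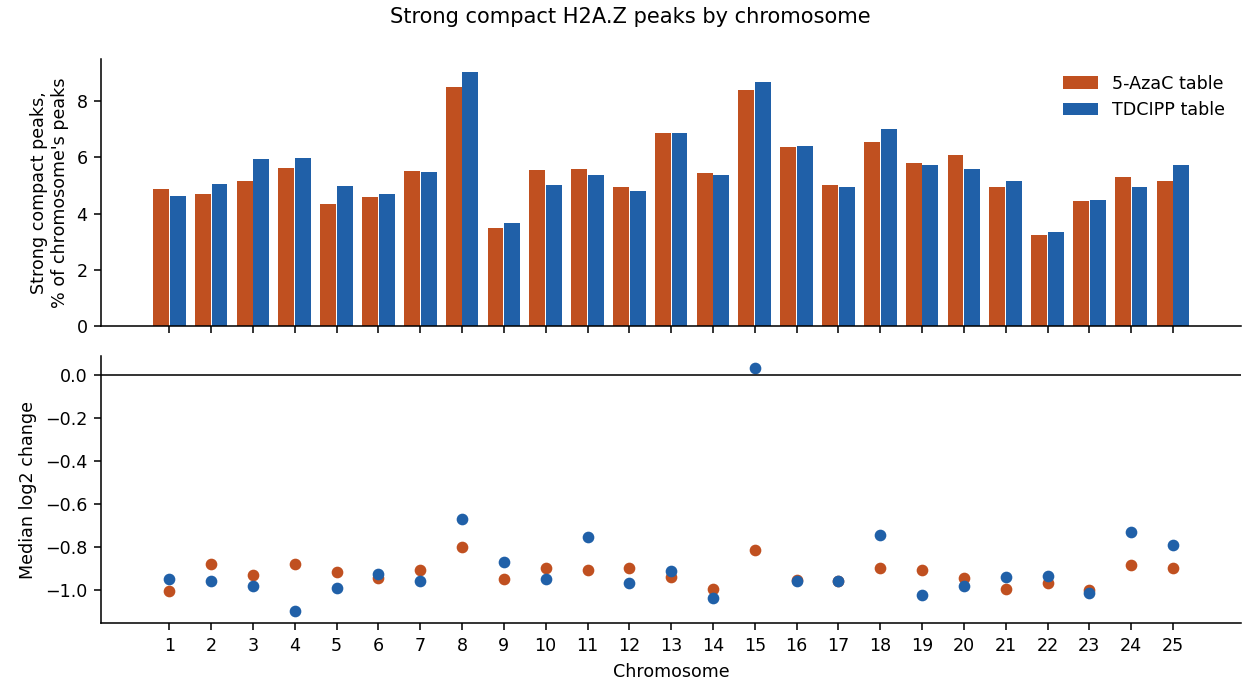
Upper panel, strong compact peaks as a percentage of all peaks on each chromosome considered; lower panel, the median deposited log2 change of the strong compact peaks (y axis) by chromosome (x axis), for both tables. Chromosomes 8 and 15 have the highest shares, and chromosome 15 after TDCIPP is the one median above 0, at 0.03.

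The gap between neighbouring strong compact peaks had a median of 423 kb in both tables. Joined where the gap was at most 20 kb, a distance chosen after the data were seen, 1001 of the 1313 peaks of the 5-AzaC table (76.2%) stood alone, 196 had 1 or 2 such neighbours, and 116 (8.83%) lay in 17 runs of 4 or more. The TDCIPP table had 987 alone, 199 with 1 or 2 neighbours and 111 (8.56%) in 15 runs. The peaks in runs had somewhat higher DMSO levels, with medians of 6.19 against 5.79 for peaks standing alone in the 5-AzaC table and 6.21 against 5.78 in the TDCIPP table. Neighbours within a run are not independent measurements.

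After treatment the runs and the lone peaks had different values. The lone peaks had a median level of 4.88 after either treatment and median changes of -0.97 for 5-AzaC (quartiles -1.13 and -0.78) and -1.0 for TDCIPP (-1.24 and -0.66). The authors' deposited tables called 670 (66.9%) of them lower and 2 (0.2%) higher for 5-AzaC. For TDCIPP 394 (39.9%) of the lone peaks were called lower and 3 (0.304%) higher. The peaks in runs had a median level of 5.53 and a median change of -0.64 after 5-AzaC, with 31 (26.7%) called lower and 8 (6.90%) higher. After TDCIPP they had a median level of 7.21 and a median change of 0.92, with 6 (5.41%) called lower and 49 (44.1%) higher. Over all peaks with an FDR under 1, 18.7% were called lower and 0.45% higher for 5-AzaC. For TDCIPP the same shares were 9.81% and 2.05%. Runs thus held 49 of the 69 higher calls, but single runs differed. After TDCIPP their median changes ran from -1.155 on chromosome 10 (15703 to 59961) to 1.62 on chromosome 15 (9634972 to 9698828). Others lay near 0, as on chromosome 16 (25921006 to 25950095) at 0.05. After 5-AzaC the run medians ran from -1.07 to 0.68. With the runs left out of the set, the higher calls of TDCIPP went from 69 (5.32%) to 20 (1.69%). Those of 5-AzaC went from 23 (1.75%) to 15 (1.25%). The median changes moved to -0.96 for TDCIPP and -0.95 for 5-AzaC.

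All 69 higher calls after TDCIPP fell into 7 stretches on 6 chromosomes when calls up to 500 kb apart were joined. The largest held 19 calls on chromosome 15 from 9634972 to 9876404, where the 20 strong compact peaks had a median level of 5.82 in DMSO and 7.51 after TDCIPP. In the same stretch the 5-AzaC table had 21 strong compact peaks with a median level of 5.16 after 5-AzaC, 9 of them called lower and 0 higher in the authors' deposited table. The other stretches with more than 5 calls lay on chromosomes 8, 15 and 18. On chromosome 8 from 34434195 to 34999624, 18 of 27 strong compact peaks were called higher, and the changes ran from -0.71 to 1.66. On chromosome 15 from 7200714 to 7276775 it was 13 of 14, and on chromosome 18 from 30031782 to 30065256 it was 7 of 10. On chromosome 13 from 25322699 to 25361484 all 4 strong compact peaks were called higher after TDCIPP, with changes of 1.10 to 1.19 in the authors' deposited table. The 4 strong compact peaks there in the 5-AzaC table were all called lower, with a median change of -1.10 in the authors' deposited table. Over the 7 stretches the median level of the strong compact peaks ran from 6.73 to 8.02 after TDCIPP. After 5-AzaC it ran from 4.52 to 6.18. Over all peaks with an FDR under 1, 2.05% were called higher for TDCIPP, and 18.7% lower and 0.45% higher for 5-AzaC. The stretches were drawn around the TDCIPP higher calls, which favours high TDCIPP levels and calls within them. The levels after 5-AzaC are set beside them as a description only.

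The longest run held 17 strong compact peaks on chromosome 15 from 7200714 to 7291123. In the 5-AzaC table the levels of its peaks ran from 5.74 to 8.18 in DMSO (median 6.12) and from 5.17 to 8.71 after 5-AzaC (median 5.51), and 1 peak was called lower in the authors' deposited table. In the TDCIPP table the levels were 5.75 to 8.18 in DMSO (median 5.91) and 5.99 to 8.30 after TDCIPP (median 7.57), and 13 peaks were called higher in the authors' deposited table. The run was not uniform. Its last 3 peaks, which end with one from 7289921 to 7291123 at a DMSO level of 8.18, had changes of 0.47 to 0.68 after 5-AzaC and -0.02 to 0.24 after TDCIPP in the authors' deposited tables. The other 14 had changes of -0.79 to -0.46 and of 0.89 to 1.84. The 14 peaks thus stood above DMSO after TDCIPP and below it after 5-AzaC, and the 3 at the end did not share this pattern. The 5-AzaC changes of the 14 had a median of -0.66, slightly above the median change of all peaks, -0.70, and 1 was called lower. After TDCIPP the median change of all peaks was -0.53. The called shares over all peaks with an FDR under 1 were 18.7% lower for 5-AzaC and 2.05% higher for TDCIPP.

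The distance between consecutive starts was computed within each run, and its regularity differed between runs. The chromosome 15 run of 13 peaks from 9635034 to 9698900 had median distances of 4259.5 bp in the 5-AzaC table and 4241 bp in the TDCIPP table, and 8 of its 12 distances lay between 4000 and 4500 bp in either table. The 17-peak run on the same chromosome had medians of 4262 and 4259 bp, but only 5 and 6 of its 16 distances lay in that range, and they ran from 2000 to 13267 bp over both tables. On chromosome 25 from 18794064 to 18878391 the medians were 4308 and 4281 bp, with 6 of 13 and 7 of 14 distances in the range. The run on chromosome 11 starting at 31058848 had 8 peaks and a median of 4258 bp in the TDCIPP table, with 4 of 7 distances in the range, but 7 peaks and a median of 8554.5 bp in the 5-AzaC table, with 2 of 6. On chromosome 18 the run of 12 peaks from 30031755 to 30071366 had medians of 2065 and 2056 bp. The distances describe the deposited intervals, and the sequence of the peaks was not analysed here.

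Levels within the runs are given over their peaks. The 13 peaks of the second chromosome 15 run had DMSO levels of 5.51 to 5.96 and TDCIPP levels of 6.34 to 7.63, with a median of 7.5, and 12 were called higher in the authors' deposited table. In the 5-AzaC table the same run had DMSO levels of 5.55 to 6.06 and 5-AzaC levels of 4.80 to 5.31, with 5 called lower in the authors' deposited table. The chromosome 25 run had TDCIPP levels of 6.11 to 7.21 and 5-AzaC levels of 4.42 to 5.89, around DMSO medians of 5.92 and 6.09, with 3 called higher and 11 called lower in the authors' deposited tables. In the chromosome 18 run the TDCIPP levels were 6.81 to 7.65 and the 5-AzaC levels 5.04 to 6.16, with 7 called higher and 2 lower in the authors' deposited tables. The TDCIPP and 5-AzaC levels of the chromosome 25, chromosome 18 and second chromosome 15 runs did not overlap. Among the other runs found in both tables they were apart or overlapped. After 5-AzaC and TDCIPP they were 4.95 to 5.64 and 6.74 to 7.59 on chromosome 11 (from 31058848). They were also apart in the chromosome 8 runs from 34434161 and from 34965632. On chromosome 16 (from 25920964) they were 6.06 to 9.40 and 5.58 to 8.80, and those of the 17-peak run overlapped too. So did those of the runs from 34523672 on chromosome 8, from 15703 and 16789066 on chromosome 10 and from 41537 on chromosome 12. Levels also overlapped in the runs from 36398651 on chromosome 16 and from 5452765 on chromosome 18. These ranges run over neighbouring peaks, not over replicates. The median changes of the chromosome 25, chromosome 18 and second chromosome 15 runs after 5-AzaC were -0.91, -0.53 and -0.74, against -0.70 over all peaks. Of all peaks with an FDR under 1, 18.7% were called lower for 5-AzaC and 2.05% higher for TDCIPP.

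**Figure D5:**
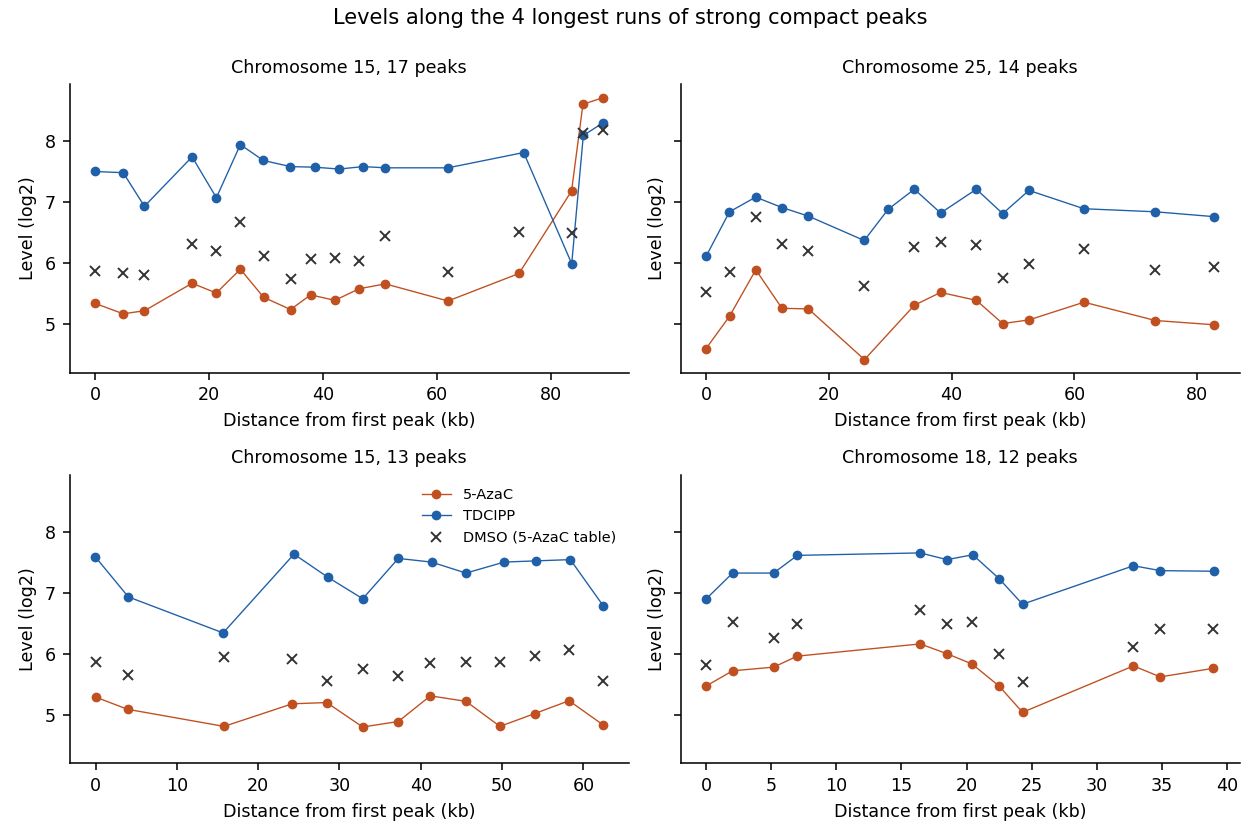
Authors' group levels (y axis, log2) of the strong compact peaks along the 4 longest runs of the 5-AzaC table, by distance from the first peak (x axis, kb), after 5-AzaC, after TDCIPP and in DMSO (crosses, from the 5-AzaC table). TDCIPP levels lie above the DMSO crosses and 5-AzaC levels below them along 3 runs. The last 3 peaks of the 17-peak run on chromosome 15 depart from this. The median change of all peaks after 5-AzaC was -0.70.

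The largest called rises after TDCIPP all lay on chromosome 15. The first, from 9721867 to 9723388, had levels of 5.51 in DMSO and 7.67 after TDCIPP, a change of 2.16 (FDR 3.01e-06) in the authors' deposited table. Its partner had 5.14 after 5-AzaC (FDR 0.329 in the authors' deposited table). The peak from 9685292 to 9686124 had 5.59 in DMSO and 7.5 after TDCIPP, and the one from 9808285 to 9809429 had 5.66 and 7.56. The 2 others, in the 17-peak run, reached 7.58 and 7.57 after TDCIPP from a DMSO level of 5.75 each.

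Higher calls after 5-AzaC were fewer and more scattered, with 23 calls in 14 stretches on 12 chromosomes, 8 of which held a single call. These stretches were drawn around the 5-AzaC higher calls, which favours high 5-AzaC levels and calls within them. Over all peaks with an FDR under 1, 0.45% were called higher for 5-AzaC and 2.05% for TDCIPP. The largest stretch held 4 calls on chromosome 10 from 16794015 to 16835546, among 7 strong compact peaks with median levels of 7.37 in DMSO and 8.22 after 5-AzaC. The 6 strong compact peaks there in the TDCIPP table had a median change of 0.23, with 0 called in the authors' deposited table. On chromosome 7 from 64598200 to 64611136 all 3 strong compact peaks were called, with a median change of 0.91 in the authors' deposited table, and the 3 of the TDCIPP table had a median of 0.38 with 0 called. The first of them, from 64598200 to 64600099, had levels of 8.47 in DMSO and 9.40 after 5-AzaC, and 8.84 at its partner after TDCIPP. Single called peaks of chromosome 17 (47051663 to 47052414) and chromosome 20 (17019672 to 17021373) had 6.77 and 6.75 after 5-AzaC, from DMSO levels of 5.86 and 5.85, and their partners had 6.23 and 6.15 after TDCIPP.

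The levels after the 2 treatments were also set side by side without the DMSO level. Over the 1229 peaks that were strong and compact in both tables, the median level was 4.95 after 5-AzaC and 4.97 after TDCIPP, and the median of the differences (TDCIPP minus 5-AzaC) was -0.05 (quartiles -0.30 and 0.28). Over all 26161 matched peaks the median difference was 0.08 (quartiles -0.28 and 0.56). The counts that follow were made over the 1229 peaks only. The 2 levels lay within 0.5 of each other at 877 peaks (71.4%). The TDCIPP level was more than 1 above the 5-AzaC level at 145 peaks and more than 1 below it at 8. Of these 145 peaks, 72 were among the 111 in runs of the 5-AzaC table, where the median levels were 7.24 and 5.52, and 52 were among the 938 standing alone in the 5-AzaC table, where they were 4.88 and 4.89. With group values alone, the size of these differences relative to replicate spread is unknown. Doses and exposure times of the compounds differ, so the levels are given side by side only.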

How the data were processed

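H2A.Z CUT&Tag peaks of 8 zebrafish samples were analysed from 2 deposited tables, grouped by the sample titles. Per the submitters' processing notes, Bowtie2, Picard, MACS2, deepTools and DiffBind were used with the build GRCz11, with no settings given. Per the file headers, the authors deposited log2 levels per group and over all samples, a log2 change, and p-values with FDRs, by consensus peak. The test, the scaling between libraries and whether peaks were called per sample are not given in the sources used here, and read depth is unknown. The change equalled the treated minus the DMSO level to within 0.011 in all peaks of both tables.

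No count model could be fitted to group values. Calls are the deposited FDR under 0.05. The FDR was 1 for 9841 and 11807 peaks, which were taken as outside the authors' adjustment and left out of the called shares. Peaks were matched as mutual best overlaps of at least 1 bp. Summaries were computed in Python 3.11.15 with pandas 2.3.3, and the steps were tested on simulated tables. The peaks, bins and runs were chosen with earlier results of these data known. Named peaks are the 5 strongest in DMSO, the 5 largest called changes in each direction, the 5 with the smallest FDR, and the peaks at the threshold, given as medians. Changes above 1 that were not called and the narrowest peaks were added after their values were seen. Gene lists, promoter positions and sequence content, planned at first, were not analysed because no annotation or genome of this build was used. Alternatives changed the level, width, chromosome, FDR and selecting group.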

Additional observations from a re-analysis of the deposited data

How the results depend on the processing

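No paired analysis was possible because the tables hold 1 value per group, and for the same reason no replicate was left out. Promoter shares, sequence content and their alternatives were not run. Leaving out runs of 4 or more was chosen after seeing the data. It gave 15 higher calls for 5-AzaC (1.25% of the peaks kept), 20 for TDCIPP (1.69%), and medians of -0.95 and -0.96.

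Percentages here are of the peaks that each setting selected. Lower calls for 5-AzaC (800, 60.9%) were 1546 (50.2%) at a DMSO level of 5, 285 (63.8%) at 6 and 507 (56.6%) under 1500 bp. They were 64 (26.2%) when selected on the treated level, 330 (53.1%) on the level over all samples and 228 (17.4%) at an FDR of 0.01. For TDCIPP (452, 34.9%) the same settings gave 815 (26.7%), 171 (39.0%), 294 (33.0%), 21 (3.72%), 225 (26.5%) and 102 (7.86%). With the FDR recomputed over all p-values (Benjamini-Hochberg), lower calls were 661 (50.3%) for 5-AzaC and 317 (24.4%) for TDCIPP. Higher calls were then 19 (1.45%) and 57 (4.39%). Higher calls for 5-AzaC (23, 1.75%) were 15 (1.68%) under 1500 bp and 42 (2.56%) with no width limit. They were 3 (0.228%) at an FDR of 0.01 and 47 (3.58%) at 0.1. At DMSO levels of 5 and 6 they were 24 (0.780%) and 19 (4.25%). On the treated level they were 27 (11.1%), and on the level over all samples 25 (4.02%). For TDCIPP (69, 5.32%) they were 32 (7.29%) at a level of 6 and 132 (23.4%) on the treated level. On the level over all samples they were 107 (12.6%), and at an FDR of 0.01 they were 45 (3.47%). The called share moved too: on the treated level, 26.2% of the peaks were called lower for 5-AzaC and 3.72% for TDCIPP, and the cause was not tested.

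The 5-AzaC median (-0.92) was -0.90 at a level of 6 and under 1500 bp, -0.48 on the treated level, -0.82 on the level over all samples, -0.22 relative to all peaks and -0.85 as a mean. The TDCIPP median (-0.93) turned to 0.49 on the treated level and was -0.53, -0.40 and -0.70 under the last 3. A selection on either group's level favours its own side. The median TDCIPP minus 5-AzaC level (-0.05) was -0.25 once each level was taken relative to its median over all matched peaks. Those medians were 3.31 after TDCIPP and 3.11 after 5-AzaC. The median of the differences over all matched peaks was 0.08. Other settings moved counts by less than 1.5 times and medians by no more than their 95% interval over peaks. Shares could move more than counts, because the settings select different numbers of peaks.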
